A study of Mus musculus with 35 samples.

Results

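Endothelial cells, the cells that line the blood vessels of the brain, were taken from nuclei libraries of the mouse hippocampus. A droplet barcode counted as an endothelial nucleus when it held 500 or more genes and 5 or more unique molecular identifiers (UMIs, each tagging 1 captured RNA molecule) of Flt1, Cldn5, Mecom, Ptprb, Pecam1 and Slco1a4, from 3 or more of them, making up 0.2% or more of its UMIs. It could hold at most 1 UMI of the pericyte genes Pdgfrb and Abcc9 and at most 3 UMIs of the neuronal genes Snap25 and Rbfox3. This rule selected 545 of 142840 barcodes with 500 or more genes, out of 144991 in all, in 14 libraries. Hippocampi of C57BL/6 mice at 9 months gave these libraries, 3 of WT, 3 of PS19, 4 of CLEAR and 4 of CLEAR_PS19 mice, the last replicate of each genotype being female and the others male. PS19 mice express mutant human tau from a transgene under the mouse prion promoter (Prnp), used to drive expression mainly in neurons. What CLEAR stands for is not spelled out in the labels; it is known as a change in the TFEB-binding (CLEAR) site of Atp6v1h, a gene for part of the proton pump that acidifies lysosomes. CLEAR_PS19 mice carry the transgene and that mutation. Whole-hippocampus bulk RNA-seq libraries of C57BL/6 mice were WT and PS19 only, 6 and 6 at 4 months and 5 and 4 at 9 months. The bulk labels give no sex, and PS19 replicate 2 at 9 months was not used here. Nothing in the labels says that replicates are separate animals, so p-values measure the spread between these samples.

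Brain endothelial cells form the blood-brain barrier. They are sealed by tight junctions built on claudin-5 (Cldn5), take up glucose, fatty acids and other solutes through dedicated transporters, and keep vesicle transport low. Their identity is kept by Wnt signals and by transcription factors of the ETS and SOX families, and their gene expression changes along the vessel from artery through capillary to vein.

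The 6 genes of the rule are described here, and no test of them in these nuclei is given; bulk libraries, which the rule did not use, are treated at the end. Flt1, a receptor for VEGF, was seen in 529 of the 545 nuclei (97.1%) and reached 4226 CPM in them against 2.69 in all other nuclei (CPM, UMIs of a gene in each 1000000 UMIs). Slco1a4, an organic anion transporter, was seen in 513 nuclei, at 3599.5 CPM against 0.859. Mecom, a transcription factor gene, was seen in 470, the phosphatase gene Ptprb in 452, Cldn5 in 407 and the adhesion gene Pecam1 in 287. The median nucleus held 22 UMIs of the 6 genes. At the lower edge of the rule, 3 nuclei held exactly 5 such UMIs, and 1 barcode just outside held 4. Few barcodes therefore lay near the threshold.

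Genes outside the rule were ranked with those of the rule to check the label. Among genes with 50 or more CPM, the 10 with the highest ratio of endothelial to other nuclei were Slco1a4, Adgrl4, Cldn5, Tie1, Sox17, Gm32688, Tbx1, Dipk2b, Hbb-bt and Ly6c1. Adgrl4, an adhesion receptor of endothelium, stood at 2004 CPM against 0.496. Tie1, the partner of the angiopoietin receptor, stood at 173 against 0.0438, and Sox17, a transcription factor of arteries, at 225 against 0.059. Dipk2b stood at 259 against 0.0847 and Ly6c1, a surface antigen of mouse brain endothelium, at 1944 against 0.723. Hbb-bt is a hemoglobin gene of red blood cells, and 76.5% of its UMIs lay in 1 library. Since the nuclei were chosen by genes of the same cells, these ratios are a description.

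**Figure D1:**
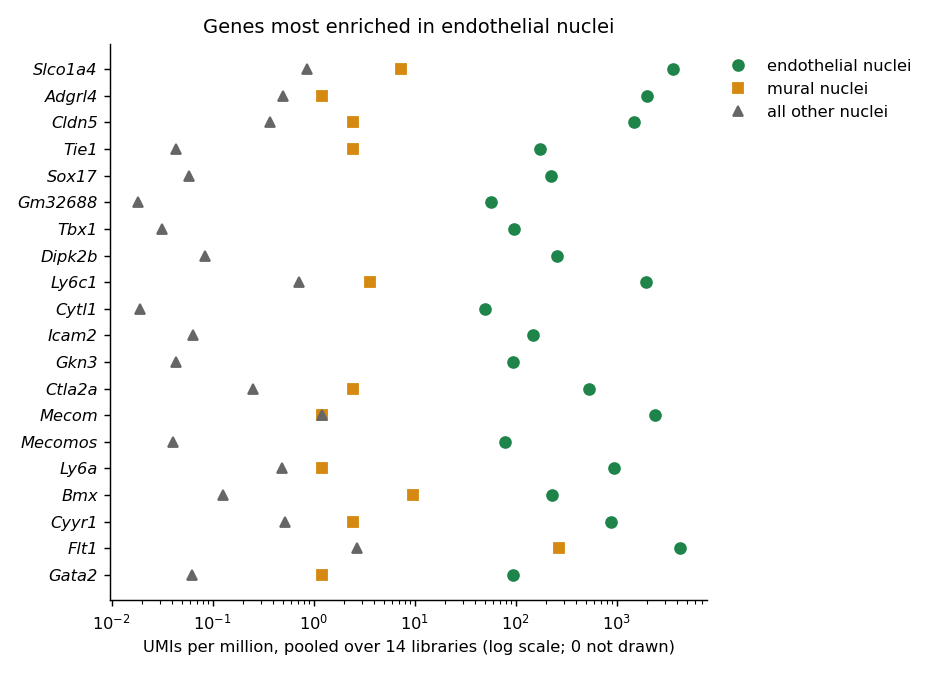
CPM (log scale), pooled over 14 libraries, of the 20 genes with the highest ratio of endothelial to all other nuclei, hemoglobin genes left out; circles are endothelial nuclei, squares mural nuclei (pericytes and smooth muscle) and triangles all other nuclei. Adgrl4 stood at 2004 in endothelial and 0.496 in other nuclei, and Flt1 was the gene with the highest level in mural nuclei, 270.5.

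Markers of other cell types were present, in part above their level in all other nuclei. All 16 genes of a separate endothelial list had UMIs and summed to 108 to 182 UMIs per 10000 in a library. Neuron genes, at 4.48 to 31.8 per 10000, lay below the 221 to 290 (289.6) of all other nuclei. Pericyte and smooth muscle genes, at 2.22 to 10.7, lay above the 0.189 to 0.513 there. Microglia genes summed to 1.82 to 21.1 against 2.19 to 6.94, and pooled to 5.36 against 3.73. Oligodendrocyte genes, at 8.05 to 32 per 10000, and astrocyte genes, at 0.636 to 44.6, overlapped their level in all other nuclei (10.2 to 23.9 and 6.66 to 19). Genes of border macrophages and T cells pooled to 0.543 against 0.293; in that list 2 of 10 genes, Lyve1 and Pf4, were at 0, as was Folr1 of the choroid plexus list. Fibroblast genes pooled to 2.82 against 0.548, ranged from 0 to 10.2 per 10000 and were highest in CLEAR replicate 3. Hemoglobin genes came from few barcodes: 1 nucleus of CLEAR replicate 1 held 1914 hemoglobin UMIs and 1 of WT replicate 2 held 721.

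Depth limited what could be read. Endothelial nuclei held a median of 1469 UMIs and 961 genes, with library medians of 987 to 1922.5 UMIs, against 3479 to 8669.5 in all barcodes. A library contributed 12 to 96 endothelial nuclei and 15728 to 183503 UMIs. No barcode was an endothelial nucleus in more than 1 library, although 30 of the 545 barcode sequences also occurred in another library. Hierarchical clustering of the summed profiles of all other nuclei parted the libraries into 3 sets. The first held PS19 1 and 2 with CLEAR_PS19 3. The second held CLEAR 1 and 2 with CLEAR_PS19 1 and 2, and the third the remaining 7. All libraries of the first set carry the transgene, and all WT libraries lie in the third. Because the sets were drawn from expression, using them as a block can also remove part of a genotype difference. The sums of all other nuclei differed by a chi-square of 3.71 per gene between CLEAR 1 and 2 and of 4.94 between CLEAR_PS19 1 and 2, against 41.7 to 127 in the other pairs of a genotype. Their endothelial sums differed by 2.10 and 1.94 per gene, within the 1.77 to 4.52 of all pairs. By Scrublet score, 34 of the 37 endothelial nuclei of CLEAR replicate 2, 25 of the 42 of CLEAR replicate 1 and 119 of 545 in all were called doublets. The share of a library's barcodes called was set in advance. Which of them are true doublets was not tested. Tmcc3 and Mgp below are given with and without these libraries.

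Endothelial nuclei made up 0.0747% to 0.951% of a library's barcodes. The share was 0.244%, 0.398% and 0.511% in WT and 0.414%, 0.951% and 0.434% in PS19. It was 0.433%, 0.381%, 0.855% and 0.270% in CLEAR and 0.129%, 0.0747%, 0.442% and 0.187% in CLEAR_PS19. The libraries PS19 replicate 2 and CLEAR replicate 3 stood highest, CLEAR_PS19 replicates 1 and 2 lowest, and all 4 genotypes overlapped. Averaged over both backgrounds, the tau transgene moved the share by -0.0305 percentage points (adjusted p = 0.816, exact permutation test, two-sided, n = 7 and 7). That average joined 0.384% ± 0.134 (SD, n = 3) in WT and 0.600% ± 0.304 (n = 3) in PS19 with 0.485% ± 0.256 (n = 4) in CLEAR and 0.208% ± 0.163 (n = 4) in CLEAR_PS19, which lay in opposite order. Within the library sets the average was -0.21 points. The value within sets leaves out PS19 replicates 1 and 2 and CLEAR_PS19 replicate 3, whose set holds no library without the transgene. PS19 replicate 3 alone then stands for PS19. The average had no stable sign: it was -0.118 points without PS19 replicate 2, 0.0313 without CLEAR replicate 3, 0.016 without PS19 replicate 1, 0.0109 without PS19 replicate 3, 0.0012 without WT replicate 3 and 0.0548 without doublets. The CLEAR mutation moved it by -0.145 points (adjusted p = 0.673, exact permutation test, n = 8 and 6). That value was -0.0574 without PS19 replicate 2, -0.0565 with barcodes thinned to 1500 UMIs, -0.0462 with 1000 or more genes and -0.219 without doublets. Thinning kept only barcodes with 1500 or more UMIs. It also used another rule, 2 or more marker UMIs from 2 or more genes after thinning, which left 4 to 61 endothelial nuclei in a library. The 4 share and ratio tests were adjusted together. With 1225 relabellings the smallest p for the mutation was 0.000816. For the transgene, with 1400, each relabelling has a mirror image of equal size, so the smallest two-sided p lay above 0.000714.

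The ratio to mural nuclei relates endothelial nuclei to the pericytes and smooth muscle cells of the vessel wall. There were 499 mural nuclei, and the ratio was 0.897 ± 0.219 (SD, n = 3) in WT, 1.03 ± 0.163 (n = 3) in PS19, 1.25 ± 0.402 (n = 4) in CLEAR and 1.64 ± 1.32 (n = 4) in CLEAR_PS19. CLEAR_PS19 replicate 4 set the last value, with 18 endothelial and 5 mural nuclei, while the other 3 libraries of that genotype lay between 0.810 and 1.2. On the log2 scale the tau transgene moved the ratio by 0.19 (adjusted p = 0.750) and the CLEAR mutation by 0.42 (adjusted p = 0.673, exact permutation tests). Without CLEAR_PS19 replicate 4 the tau value was -0.04 and the CLEAR value 0.19. The tau value was 0.46 within the library sets, where PS19 replicate 3 alone again stands for PS19. It was 0.54 with barcodes thinned to 1500 UMIs and 1.05 without doublets (adjusted p = 0.554 and 0.274, exact permutation tests). Thinning again kept only barcodes with 1500 or more UMIs, under the other rule given for the share. A lower share of nuclei cannot be told apart from poorer recovery of vessel nuclei.

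**Figure D2:**
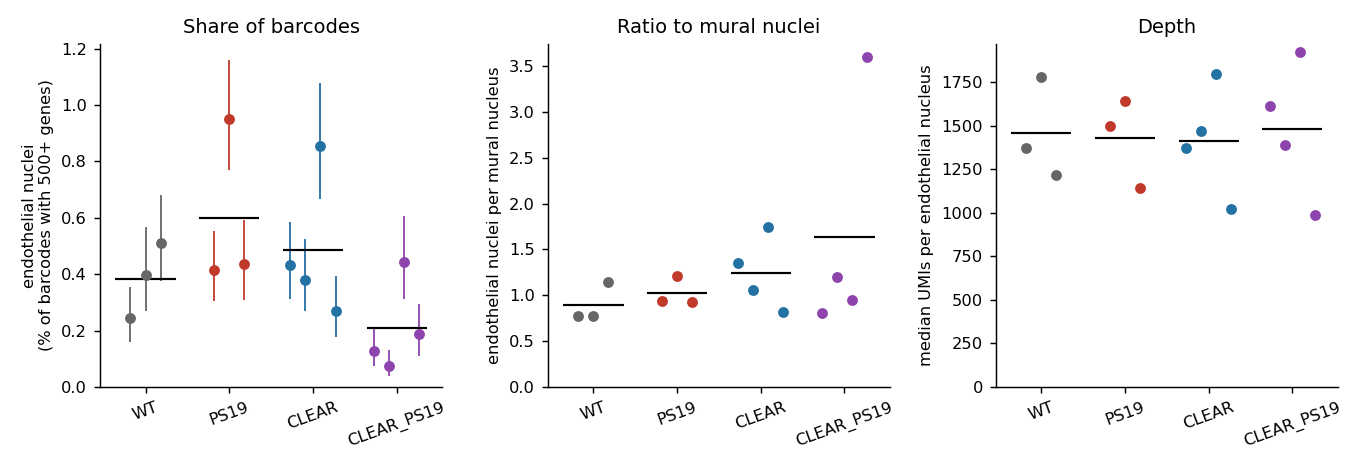
Left, endothelial nuclei as a percentage of barcodes with 500 or more genes, with exact 95% binomial intervals that cover counting error only; middle, endothelial nuclei per mural nucleus; right, median UMIs per endothelial nucleus. Points are libraries and lines genotype means; the genotypes overlap in all 3 panels, and CLEAR_PS19 replicate 4 stands at 3.6 in the middle one.

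Atp6v1h, at chr1:5070018-5162529 (GRCm38), checks the CLEAR label. In all other nuclei it stood at 96.5 to 117 CPM in the libraries without the mutation and at 54.4 to 62.1 in those with it, so these groups did not overlap (log2 -0.90, SE 0.05, edgeR adjusted p = 2e-06). In endothelial nuclei only 90 UMIs were counted, too few to pass the filter on low counts. Pooled, they came to 109 CPM in WT (95% exact interval 64.4 to 172), 121 in PS19 (86.3 to 166), 75.1 in CLEAR (48.1 to 112) and 59.4 in CLEAR_PS19 (27.2 to 113). The mean log2 difference with the mutation was -0.64 in endothelial nuclei (adjusted p = 0.113, exact permutation test) and -0.90 in the others (adjusted p = 0.00245). The difference between these 2 values did not pass (0.25, adjusted p = 0.487, exact permutation test). With no filter on low counts edgeR gave -0.90 with the mutation in endothelial nuclei (SE 0.45), which was not called after adjustment.

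The tau transgene was sought through Prnp and Mapt. In bulk hippocampus Prnp, whose promoter drives the transgene, was higher in PS19 by 1.21 log2 units at 9 months (SE 0.06, edgeR adjusted p = 4.3e-12). In all other nuclei it was higher with the transgene by 0.84 (SE 0.11, adjusted p = 0.0013). In endothelial nuclei, where Prnp stood at 149 CPM, the value was -0.06 (SE 0.30, edgeR adjusted p = 1) with an approximate 95% interval of -0.65 to 0.54. The difference between endothelial and other nuclei, -0.86 (SE 0.23), did not pass (limma adjusted p = 0.21). Mapt gave 0.11 (SE 0.45, edgeR adjusted p = 1) in endothelial nuclei, where it stood at 125 CPM against 408 in all other nuclei.

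Gene by gene, UMIs were summed per library and 1737 genes had enough counts for edgeR's quasi-likelihood test, with sex as a covariate and all 4 genotypes in the fit. With the tau transgene over both backgrounds 1 gene rose and none fell (0.0576% of those tested), where DESeq2 also gave 1 and 59 genes lay under an unadjusted p of 0.05. Between CLEAR_PS19 and CLEAR 1 gene rose and 1 fell (0.115%), and DESeq2 called 4. In PS19 against WT 0 genes passed (0%), with 61 at an unadjusted p under 0.05 and 0 by DESeq2. The CLEAR mutation over both backgrounds gave 0 genes (0%), 109 at an unadjusted p under 0.05 and 0 by DESeq2. CLEAR against WT gave 0 (55 unadjusted, 1 by DESeq2), CLEAR_PS19 against PS19 gave 0 (119 and 0) and the interaction of transgene and mutation 0 (76 and 1).

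Tmcc3, a gene for a membrane protein of the endoplasmic reticulum (chr10:94311949-94590956), was the gene that rose with the transgene. It stood at 119, 128 and 232 CPM in WT and at 194, 470 and 375 in PS19. It stood at 84.9, 68.3, 110 and 93.5 in CLEAR and at 345, 311, 448 and 698 in CLEAR_PS19. All 4 CLEAR_PS19 libraries lay above all 4 CLEAR libraries, while WT replicate 3 lay above PS19 replicate 1. The change was 1.71 log2 units over both backgrounds (SE 0.27, adjusted p = 0.0094) and 2.21 on the CLEAR background (SE 0.37, adjusted p = 0.022). On the WT background it was 1.21 (SE 0.39, adjusted p = 0.91), and the difference between the 2 backgrounds did not pass (interaction 0.99, SE 0.55, adjusted p = 0.95, all by edgeR).

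Tmcc3 was measured in other nuclei too. All other nuclei held 114 to 138 CPM in WT, 158 to 289 in PS19, 100 to 139 in CLEAR (lowest 100.4) and 115 to 188 in CLEAR_PS19. There the change of 0.52 (SE 0.15) did not pass (edgeR adjusted p = 0.056). The difference between endothelial and other nuclei was 0.99 (SE 0.22, limma adjusted p = 0.086) over both backgrounds and 1.71 (SE 0.29, limma adjusted p = 0.036) on the CLEAR background. Summed per library, oligodendrocyte markers in endothelial nuclei were 8.05 to 13.3 per 10000 in CLEAR. In CLEAR_PS19 replicates 1 to 4 they were 32, 10.2, 9.69 and 30.2, where Tmcc3 stood at 345, 311, 448 and 698 CPM. Pooled over all libraries, the 198 endothelial nuclei with 0 oligodendrocyte marker UMIs held Tmcc3 at 396 CPM. The 347 nuclei with 1 or more held it at 194 CPM, and this split was not tested. Microglia markers were 1.87 to 4.06 in CLEAR and 3.02 to 21.1 in CLEAR_PS19. Without nuclei holding over 3 UMIs of glial markers the change was 1.53 over both backgrounds and 2.13 on the CLEAR background. Bulk hippocampus showed 0.15 at 9 months (SE 0.08, edgeR adjusted p = 0.24).

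The call rested on few UMIs, 3 to 88 in a library. It was lost without WT replicate 2 (adjusted p = 0.13), WT replicate 3 (0.06), PS19 replicate 2 (0.14) or CLEAR_PS19 replicate 3 (0.054), with the library sets as a block (0.98), without doublets (0.91), with 1000 or more genes per nucleus (0.56), in males only (0.35) and without nuclei holding over 3 UMIs of glial markers (0.15), while the change kept its direction, at 1.40 to 1.83, in all 26 alternatives. On the CLEAR background it was lost without CLEAR replicate 1 or 2 or CLEAR_PS19 replicate 3 or 4 (adjusted p 0.086 to 0.11), with the library sets as a block (0.12), without doublets (1), without glial UMIs (0.12) and in males only (0.22), and the difference from other nuclei there was lost in 19 of 22 alternatives, among them the replicate number as a block (limma adjusted p = 0.15). Asking for 1000 or more genes per nucleus leaves 1 CLEAR_PS19 library, replicate 3, which is then assumed to vary like the other groups, and leaving out glial UMIs leaves 2, so the values under these settings say little about the CLEAR background.

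Mgp, the matrix Gla protein of large vessels (chr6:136872435-136875823), fell between CLEAR and CLEAR_PS19. It stood at 1188, 1997, 1273 and 280.4 CPM in CLEAR and at 310.3, 0, 82.6 and 0 in CLEAR_PS19. Only 79 of the 545 nuclei held any of its 524 UMIs. The nuclei with the most, all of CLEAR replicates 1 to 3, held 64, 45, 41, 40 and 25. WT libraries held 77.4 to 139 and PS19 libraries 148 to 321, so that CLEAR replicates 1 to 3 stood apart from all others. In all other nuclei, too, these 3 libraries were highest, at 7.03 to 9.03 CPM against 0.702 to 4.71. The change was -3.43 log2 units (SE 0.61, edgeR adjusted p = 0.022). It was lost without any of CLEAR replicates 1 and 2 or CLEAR_PS19 replicates 2, 3 and 4 (adjusted p 0.053 to 0.15), with the library sets as a block (0.12), without glial UMIs (0.12), in males only (0.058) and with the doublets removed, which leaves out CLEAR replicate 2 (adjusted p = 1). Under these alternatives the change was -2.70 to -3.94. It was -4.93 without a call (0.12) with 1000 or more genes per nucleus, where 1 CLEAR_PS19 library is left. Bmx, a kinase gene of arterial endothelium, gave -3.44 (SE 0.72) without passing (adjusted p = 0.081). It stood at 382, 341, 617 and 156 in CLEAR and at 69, 0, 11.8 and 99.7 in CLEAR_PS19.

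Both genes mark arteries, so the vessel zones were described. The arterial and venous lists were trimmed after their values were seen, and the sums over the arterial, capillary and venous lists carry no test. Mgp and Bmx are themselves in the arterial list, so its sums in part restate their values. Arterial genes summed to 22.4, 31.7, 33.1 and 10.3 UMIs per 10000 in CLEAR, against 6.46 to 9.44 in WT, 5.45 to 10.8 in PS19 and 3.18 to 10.9 in CLEAR_PS19. Venous genes summed to 20.6, 18.6 and 13.5 in PS19 and to 2.90 to 8.69 in WT, while CLEAR (5.62 to 19.2) and CLEAR_PS19 (6.40 to 16.1) spanned both. Capillary genes ran from 40.7 per 10000 in CLEAR replicate 3 to 132 in CLEAR_PS19 replicate 2. CLEAR replicate 3 thus stood highest for arterial and lowest for capillary genes, and fibroblast genes, 10.2 per 10000, were also highest in it. Which vessels a dissection caught was not measured, and its part in these values was not tested.

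**Figure D3:**
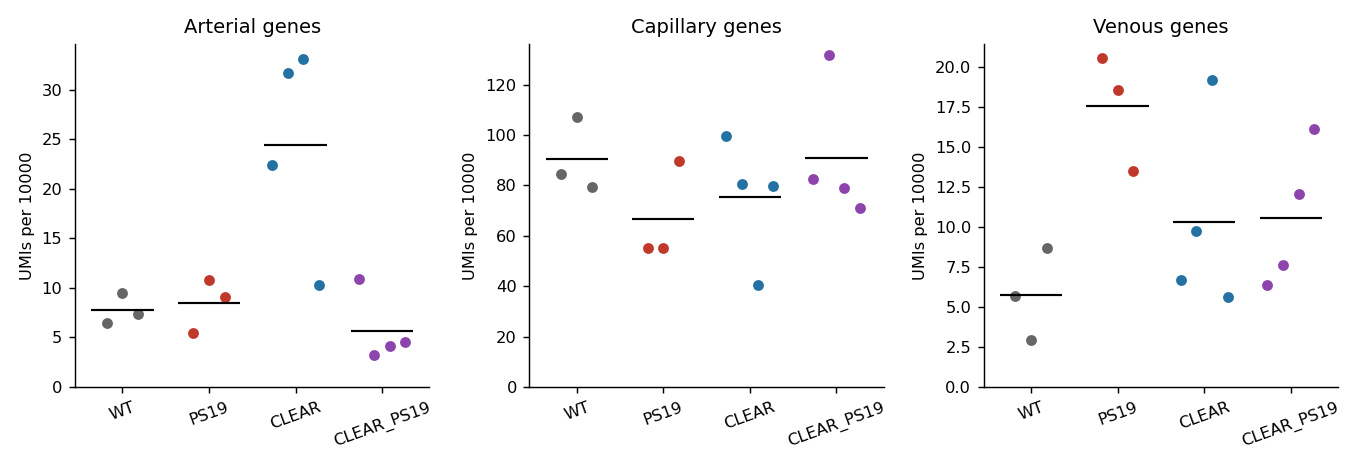
Summed UMIs per 10000 of arterial, capillary and venous genes in the endothelial nuclei of each library (points) with genotype means (lines). CLEAR replicates 1 to 3, at 22.4 to 33.1, lie above all other libraries for arterial genes, a list that includes Mgp and Bmx. The 3 PS19 libraries, at 13.5 to 20.6, lie above the 3 WT libraries for venous genes.

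These genes did not part the nuclei into separate zones. With 2 or more UMIs as the bar, 86 nuclei were arterial only, 121 venous only, 49 both and 289 neither, and the product of the arterial and the venous share gives 42.1 nuclei with both. Median UMIs were 1671.5 in arterial only, 1642 in venous only and 1247 in the last class, so part of the last class was shallow. Thinned to 600 UMIs each, with 1 UMI as the bar, 97 were arterial only, 127 venous only, 58 both and 263 neither, against a product of 52.6. Nuclei with both were thus no fewer than the product in either count.

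Genes outside the lists were ranked by their ratio between arterial-only and venous-only nuclei, as a description. The 10 highest on the arterial side were Cdh13, Efna5, Edil3, Eln, Prdm16, Slc24a2, Nkain2, Dscaml1, Kcnq3 and Anks1b. Elastin (Eln), the fibre protein of arterial walls, stood at 1225 CPM in arterial and 112 in venous nuclei, and the cadherin gene Cdh13 at 465 and 4.32. Nkain2 stood at 2223 and 242, Slc24a2 at 845 and 90.6, Kcnq3, a potassium channel gene of neurons, at 386 and 47.5, and Anks1b, a synaptic gene, at 208 and 25.9. On the venous side the 10 were Gm5127, Gpc5, Nrp2, Flrt2, Lsamp, Gm20713, Wdr17, Net1, Adgrl3 and Adgrg6. Gm5127 had 0 UMIs in arterial and stood at 1040.3 CPM in venous nuclei, and Nrp2, a receptor known from veins and lymphatics, at 30.6 and 453. Gpc5, a gene of astrocytes, stood at 36.7 and 967, though only 16 of the 545 nuclei held any of its 394 UMIs and 1 of them held 124. Lsamp, an adhesion gene of neurons, stood at 122 and 1282. Both sides thus held vessel genes and genes known from neurons or glia, and the part of RNA from other cells in these classes was not tested. Among nuclei in neither class the 4 highest ratios were those of hemoglobin genes, and Hmcn1 stood at 2417 CPM against 551 in arterial and 855 in venous nuclei.

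Venous genes had positive values in PS19 against WT, none past the test. Of 7 venous genes with enough counts all 7 had a positive value, median 1.65 against 0.01 for all genes, and 0 were called. As the arterial and venous lists were trimmed after their values were seen, such counts and medians are a description only. The filter on low counts could also be met by the PS19 or the CLEAR libraries alone. Genes that enter in this way favour the genotype where they are high, so the signs are no support. PS19 replicates 1 and 2 also lie in another library set than the WT libraries. Cysltr1, a leukotriene receptor gene, gave 2.60 (SE 0.82, adjusted p = 0.91). Il1r1, the interleukin 1 receptor, gave 1.85 (SE 0.71, adjusted p = 1). Vwf, the von Willebrand factor, gave 1.21 (SE 0.50, adjusted p = 1) and Vcam1, an adhesion molecule for leukocytes, 2.00 (SE 0.87, adjusted p = 1, all by edgeR). Over both backgrounds the venous median was 0.64 and the arterial one -0.87, with 0 of 7 and 0 of 6 genes called; Gkn3, an arterial gene, gave -1.97 (SE 0.59, edgeR adjusted p = 1), and with no filter on low counts -2.02 and a call (SE 0.49, edgeR adjusted p = 0.039).

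Barrier genes showed no called change with the transgene. Genes of the rule were left out of the lists in nuclei. Among junction genes 0 of 13 tested were called, 7 higher and 6 lower, with a median of 0.03 against -0.02 for all genes. Cdh5, the cadherin of endothelial adherens junctions, stood at 170 to 435 CPM and gave 0.10 (SE 0.25, adjusted p = 1). Among transporters 0 of 21 were called and the median was -0.12. Slc2a1, the glucose transporter, stood at 573 to 2115 CPM and gave 0.24 (SE 0.32). Abcb1a, the P-glycoprotein drug pump, stood at 414 to 1321 and gave -0.03 (SE 0.21), with an approximate 95% interval of -0.43 to 0.37. Mfsd2a, the lipid transporter that restrains vesicle traffic, rested on 98 UMIs and gave -0.46 (SE 0.46; adjusted p = 1 for all 3, edgeR).

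Signalling lists held no called gene either. For VEGF and angiopoietin genes 0 of 8 were called (median -0.17): Kdr, the main VEGF receptor, gave -0.15 (SE 0.27) and Tek, the angiopoietin receptor, -0.14 (SE 0.24; edgeR adjusted p = 1 for both). For Wnt and barrier transcription genes 0 of 12 were called (median -0.09), for TGF-beta and BMP genes 0 of 10 (median -0.06) and for basement membrane genes 0 of 8 (median -0.09). Of 11 Notch genes none had enough counts. Of 18 V-ATPase genes 4 were tested and of 40 lysosomal genes 4, with 0 called in either and medians of -0.04 and 0.40. With the CLEAR mutation over both backgrounds the same lists also held 0 called genes. Ocln, the occludin gene of tight junctions, had the smallest p there among junction genes outside the rule: it stood at 263 to 456 CPM in WT, 256 to 353 in PS19, 249.2 to 290.2 in CLEAR and 62.2 to 207 in CLEAR_PS19, a value of -0.76 (SE 0.24, edgeR adjusted p = 0.71).

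Genes of the interferon response and of antigen presentation were set against the rest of the hippocampus. In all other nuclei 28 of 42 rose with the transgene and none fell (median 1.19), where 7.57% of 22326 tested genes changed, 4.55% rising and 3.02% falling. In endothelial nuclei 15 had enough counts and 0 were called (median 0.17 against -0.02 for all genes). The difference between endothelial and other nuclei was tested per gene with limma: 6 of 1737 genes differed (0.345%), 5 of them lower in endothelial nuclei (0.288%); in PS19 against WT 2 differed (0.115%) and in CLEAR_PS19 against CLEAR 1 (0.0576%). Of the 15 list genes 2 were among those 5, B2m and H2-D1, and 13 had a negative value.

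B2m encodes the light chain of MHC class I (chr2:122147686-122153083). Endothelial nuclei held 139, 237 and 279 CPM in WT and 376, 299 and 237 in PS19. They held 255, 341, 149 and 530 (529.6) in CLEAR and 207, 187, 259 and 49.8 in CLEAR_PS19, so the genotypes overlapped. CLEAR_PS19 replicates 2 and 4 held only 15728 and 19872 endothelial UMIs over all genes. Their values of B2m, and of Sp100, H2-D1 and Slfn5 below, therefore rest on few UMIs. All other nuclei held 2.87, 3.6 and 3.48 in WT and 15.5, 24.0 and 8.62 in PS19, without overlap, and 4.12 to 6.47 in CLEAR and 4.03 to 10.2 in CLEAR_PS19. The change with the transgene was -0.01 in endothelial nuclei (SE 0.34, interval -0.68 to 0.66, edgeR adjusted p = 1) and 1.40 in all others (SE 0.19, edgeR adjusted p = 0.0016). The difference was -1.54 (SE 0.26, limma adjusted p = 0.023). The level in endothelial nuclei was thus above that of other nuclei in every library. The call was lost without any 1 WT library or without PS19 replicate 2 (adjusted p 0.056 to 0.072), with 1000 or more genes per nucleus (0.33), with the replicate number as a block (0.053) and with the library sets as a block (0.59).

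Sp100, a nuclear body gene induced by interferon (chr1:85649988-85709998), had the smallest p. Endothelial nuclei held 139, 237 and 310 (309.7) CPM in WT and 274, 390 (390.2) and 237 in PS19, while all other nuclei held 0.334 to 0.949 in WT and 3.75 to 18.0 in PS19. In CLEAR and CLEAR_PS19 endothelial nuclei held 212 to 351 and 187 to 349. The difference was -2.34 (SE 0.31, limma adjusted p = 0.0027), and -3.25 in PS19 against WT (SE 0.48, limma adjusted p = 0.0076). It was lost with the library sets as a block (limma adjusted p = 0.59) and held in the other 21 alternatives. PS19 1 and 2 and CLEAR_PS19 3, which form 1 set, had the highest Sp100 in other nuclei (5.89, 18.0 and 4.12 CPM). This block cannot separate that set from the transgene. In PS19 against WT the difference was also lost without WT replicate 1 (0.074) or PS19 replicate 2 (0.063).

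H2-D1, an MHC class I heavy chain whose reads near-identical family members can share, gave -1.35 (SE 0.28, limma adjusted p = 0.048). Slfn5, a gene of the interferon-induced Schlafen family (chr11:82951349-82964840), stood at 109 to 278 CPM in WT and 59.2 to 171 in PS19 endothelial nuclei, which overlapped, and at 0.357 to 0.708 and 1.9 to 6.65 in all other nuclei, which did not. Its difference was -1.92 (SE 0.35, limma adjusted p = 0.026). Fli1, an ETS factor of endothelium and blood cells, gave -1.26 (SE 0.24, limma adjusted p = 0.027): its endothelial level was 483 to 1719 CPM, and other nuclei rose by 1.10 (SE 0.23, edgeR adjusted p = 0.011). In these genes the endothelial value itself was small, 0.17 for H2-D1, -0.19 for Slfn5 and -0.21 for Fli1. Summed microglia markers in all other nuclei were 2.19 to 3.19 per 10000 UMIs in WT, 4.54 to 6.94 in PS19, 2.44 to 3.37 in CLEAR and 3.77 to 4.57 in CLEAR_PS19, without overlap between libraries with and without the transgene, and their part in these differences was not tested. With the library sets as a block 0 genes differed. Slfn5 lost its call without WT replicate 1 or 3, PS19 replicate 1 or 2 or CLEAR_PS19 replicate 4 (adjusted p 0.056 to 0.092), without doublets (0.058) and with 1000 or more genes per nucleus (0.57, at -1.32). Fli1 and H2-D1 lost theirs in 13 and 17 of 22 alternatives, among them leaving out any 1 WT library (0.058 to 0.19).

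Slco1c1, whose protein carries thyroid hormone across the barrier (chr6:141524368-141570177), differed the other way, by 1.76 (SE 0.33, limma adjusted p = 0.026). Endothelial nuclei held 827.5 to 2481 CPM, with a change of -0.12 (SE 0.22, edgeR adjusted p = 1). All other nuclei held 10.9 to 28.4 in the 7 libraries without the transgene and 3.20 to 8.42 in the 7 with it, without overlap, a value of -1.94 (SE 0.27, edgeR adjusted p = 0.0017). The difference lost its call in 12 of 22 alternatives, among them leaving out any 1 WT or PS19 library (adjusted p 0.065 to 0.15). Bulk hippocampus at 9 months gave 0.04 (SE 0.16, edgeR adjusted p = 0.91). Astrocyte markers in all other nuclei summed to 10.1 to 19 UMIs per 10000 in WT, 8.51 to 10.2 in PS19, 9.52 to 15.3 in CLEAR and 6.66 to 9.56 in CLEAR_PS19, and their part in this value was not tested.

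**Figure D4:**
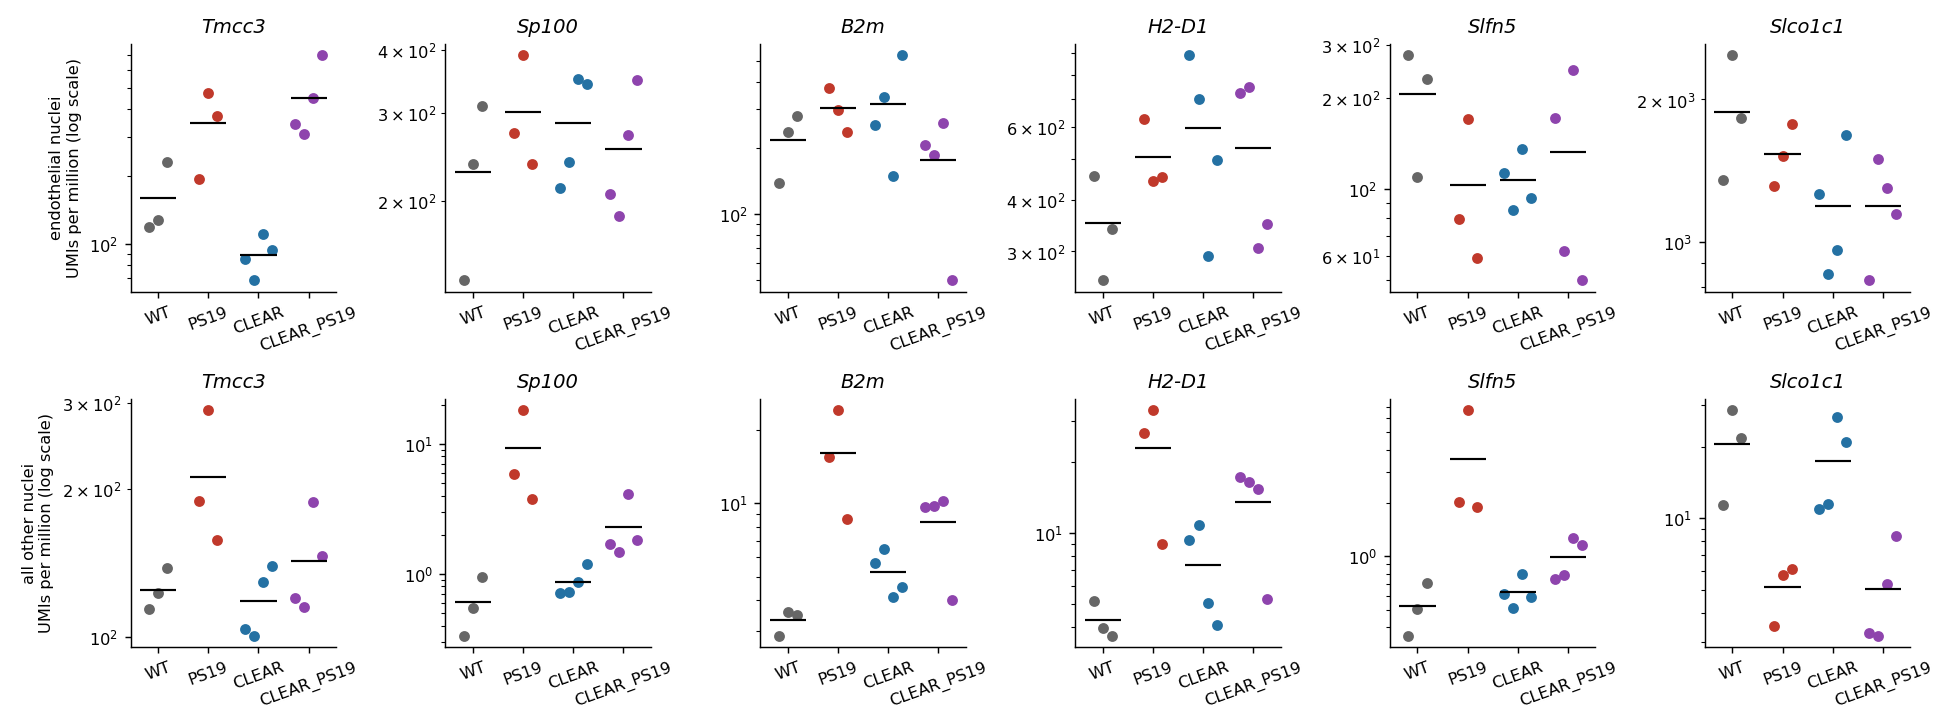
CPM (log scale, an axis of its own in each panel) of 6 genes in endothelial nuclei (upper row) and in all other nuclei (lower row); points are libraries and lines genotype means. In the lower row WT and PS19 do not overlap for any of the 6 genes, and in the upper row they do for all 6; for Tmcc3 all 4 CLEAR_PS19 libraries lie above all 4 CLEAR libraries in the upper row.

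The promoters of B2m and Slfn5 are shown because the change with the transgene differed between endothelial and other nuclei for both genes, and both hold a motif of interferon response elements. Sequences are from RefSeq (GRCm38.p6), plus strand, the 250 bases before the start site in that table, chr2:122147437-122147686 and chr11:82951852-82952101. The Slfn5 window lies within the gene span given above, since another annotated transcript begins upstream of this start. Capitals mark a GAAA followed, after any 2 bases, by another GAAA, searched on both strands; it begins 139 bases before the start in B2m and 155 in Slfn5, as counted in that table.
B2m: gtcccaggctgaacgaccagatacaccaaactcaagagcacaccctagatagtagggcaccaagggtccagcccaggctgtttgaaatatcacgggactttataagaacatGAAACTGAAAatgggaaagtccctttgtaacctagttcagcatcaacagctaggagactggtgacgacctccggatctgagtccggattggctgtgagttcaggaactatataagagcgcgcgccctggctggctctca
Slfn5: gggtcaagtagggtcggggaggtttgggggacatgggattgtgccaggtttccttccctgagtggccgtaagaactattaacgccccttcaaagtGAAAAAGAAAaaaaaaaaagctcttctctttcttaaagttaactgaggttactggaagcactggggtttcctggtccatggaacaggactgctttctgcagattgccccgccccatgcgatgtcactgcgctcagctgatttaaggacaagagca
The motif lay in 2.98% of all 32851 promoters in the table, and in 1 or more promoters of 11 of the 32 genes (34.4%) of the interferon and antigen presentation list that the table holds, against 3.46% of all 27025 genes in it. This exact pattern was not found in the windows of H2-D1 and Sp100. Other forms of interferon response elements were not searched, so these windows are not shown to lack them. A match describes these letters only.

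Bulk hippocampus gave a reading in separate libraries and at 2 ages. In bulk, fewer cells of a type and less RNA per cell cannot be told apart. At 9 months 2060 of 16133 genes (12.8%) changed in PS19 (edgeR adjusted p under 0.05), 1239 higher (7.68%) and 821 lower (5.09%); without PS19 replicate 5 the count was 1185. At 4 months 3 genes rose (0.0186%), Prnp and Mapt among them. A list of 153 genes with 100 or more CPM and at least 50 times the level of other nuclei was drawn from the nuclei after seeing them, hemoglobin genes left out. Of the 146 measured in bulk 32 rose at 9 months and none fell, and 137 had a positive value, with a median of 0.33 against -0.01 for all genes. The largest rises were those of Oasl2 (2.71), Isg15 (2.41), Osmr (2.26), H2-K1 (1.92), Vim (1.86), Iigp1 (1.85) and Ifitm3 (1.64), most of them known interferon genes. Without the 5 genes that the interferon list below shares, 29 of 141 rose, 132 had a positive value and the median was 0.32. These 141 still held Iigp1, Ifitm3, Slfn5 (1.14) and Sp100 (1.11), so they are not free of interferon genes. Microglia markers rose in the same libraries (median 1.02), and their part in these values was not tested. At 4 months 0 were called and 38 had a positive value (median -0.06).

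Adgrl4 and Slco1a4, which all other nuclei held at under 1 CPM, rose in bulk at 9 months. Adgrl4 stood at 18.7, 19.3, 21.4, 16.2 and 12.7 CPM (here reads of a gene in each 1000000 reads) in WT and at 23.3, 26.3, 21.3 and 23.3 in PS19 (0.42, SE 0.11, adjusted p = 0.018). Only the lowest PS19 library fell below the highest WT one. Slco1a4 stood at 66.6, 66.7, 53.5, 62.9 and 57.7 CPM in WT and at 68.3, 74.8, 76.3 and 78.6 in PS19, without overlap (0.28, SE 0.08, adjusted p = 0.023, edgeR). The other 5 genes of the rule gave 0.22 to 0.35 without passing, Cldn5 among them (0.30, adjusted p = 0.13). Slco1a4 lost its call without WT replicate 3 or 5 or PS19 replicate 4 or 5 (adjusted p 0.054 to 0.089), and Adgrl4 without PS19 replicate 3 (0.064, edgeR).

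Each list below is set against the 12.8% of all genes called and the 7.68% rising. Of 10 genes in a list of caveolae, the membrane pits of vesicle transport, and of other transport across the cell, 3 rose (30%). This list also holds Bmx, Lrp1 and Picalm, which are not genes of caveolae. Cav1, the main caveolin, stood at 12.3 to 18.2 CPM in WT (median 15.9) and at 20.6, 27.4, 21.7 and 32.1 in PS19, without overlap (0.70, SE 0.15, adjusted p = 0.0031). Cav2 gave 0.72 (SE 0.14) and Ehd4, which shapes the necks of caveolae, 0.61 (SE 0.11). At 4 months Cav1 stood at 12.5 to 18.9 CPM in WT and 11.2 to 19.8 in PS19. In endothelial nuclei the caveolae list had 4 tested genes and 0 called, with a median of -0.44.

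Of 26 transporters 4 rose (15.4%): Slco2b1 by 0.81 (SE 0.09), Slc16a1, which carries lactate and ketone bodies, by 0.50 (SE 0.07), Slco1a4 and Slc3a2. Slc2a1 (0.20), Abcb1a (0.14) and Mfsd2a (-0.24) did not pass. Of 18 junction genes 3 rose (16.7%), Jam2 by 0.29 (SE 0.06) and F11r by 0.69 among them, while Ocln (-0.02) and Cdh5 (0.19) did not pass. Of 29 Wnt and barrier genes 6 rose (20.7%), including Lef1, the Wnt transcription factor (0.70, SE 0.20), Fzd6, a Wnt receptor (0.48, SE 0.13), and Fli1 (0.69, SE 0.19); the others were Tcf7l1, Ppard and Apcdd1, at 0.27 to 0.48. Of 16 TGF-beta and BMP genes 4 rose (25%), including the receptor gene Tgfbr2 (0.95, SE 0.13) and Id3 (0.72, SE 0.12), a target of BMP signals, besides Tgfbr1 (0.73) and Acvrl1 (0.37). Of 14 basement membrane genes 4 rose (28.6%), Sparc by 0.71, Itga1 by 0.58, Itga6 by 0.53 and Itgb1 by 0.33. Among 19 VEGF and angiopoietin genes 1 rose and 2 fell (15.8% called): Angpt1, an angiopoietin, gave 0.78 (SE 0.15), Vegfa -0.33 (SE 0.11, adjusted p = 0.042) and Apln -0.35 (SE 0.09, adjusted p = 0.013, all by edgeR). The shares of transporter, junction and VEGF genes called lay near that of all genes, 12.8%, and are no result about those lists. Calls were lost for Vegfa with library sizes unscaled (adjusted p = 0.077) and without any 1 of 10 libraries (adjusted p 0.05 to 0.13; WT replicates 1 to 3 and all 4 of PS19 at 9 months, WT 4 and 6 and PS19 2 at 4 months). They were lost for Lef1 without WT replicate 4 or 5 or PS19 replicate 3 or 5 (0.058 to 0.1), for Fli1 without WT or PS19 replicate 5 (0.056 and 0.094), for Fzd6 without PS19 replicate 4 (0.07) and for Apln without PS19 replicate 1 (0.068).

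Inflammatory and interferon genes followed. Of 22 genes of leukocyte adhesion and cytokine response 11 rose (50%), including Icam1, an adhesion molecule (1.35, SE 0.27), and Osmr, the oncostatin M receptor (2.26, SE 0.13). The others were Cxcl10, Socs3, Cd44, Cd9, Tnfrsf1a, Tnfrsf1b, Il4ra, Il6ra and Il6st, from 3.28 for Cxcl10 to 0.27 for Il6st. Vcam1 (0.54, adjusted p = 0.08) and Vwf (0.43, adjusted p = 0.18) did not pass. Of 42 interferon and antigen presentation genes 32 rose (76.2%) and none fell, with a median of 1.39 (edgeR), from 0.45 for Ifngr1 to 2.71 for Oasl2. B2m stood at 47.6 to 68.9 CPM in WT (median 60.6) and at 152, 193, 127 and 301 (300.7) in PS19, without overlap (1.67, SE 0.22, adjusted p = 1.5e-05). At 4 months all 42 had a negative value and 0 were called, and B2m stood at 66.7 to 140 (139.9) CPM in WT and 45.6 to 77.2 in PS19. All 10 microglia markers rose in bulk at 9 months (median 1.02), and their part in the bulk values of genes that microglia share was not tested.

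**Figure D5:**
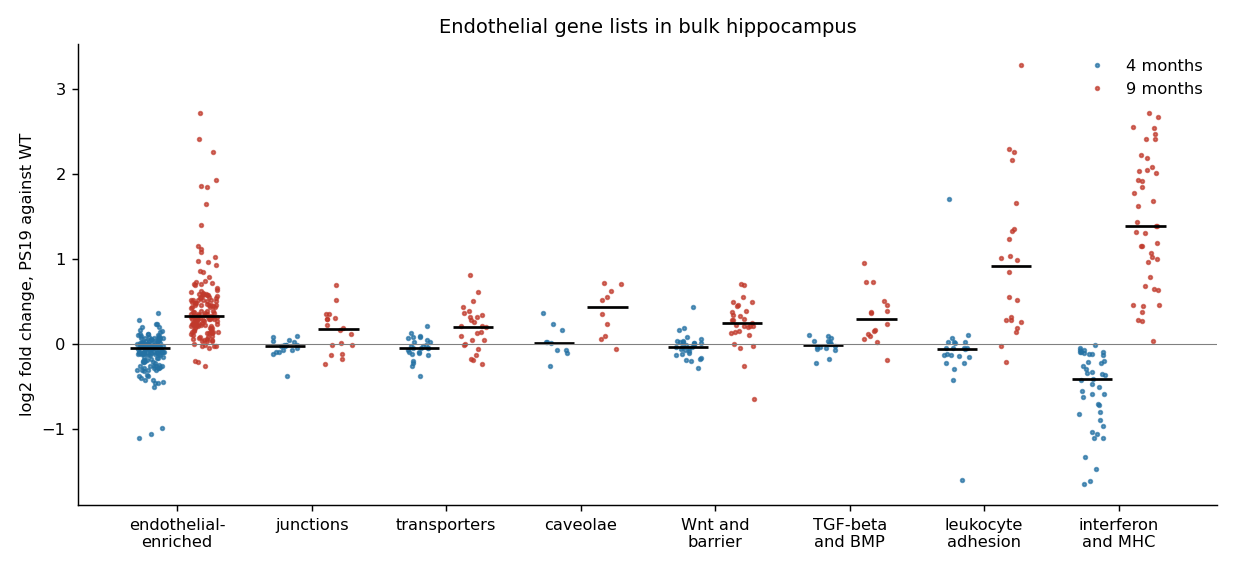
Log2 fold change of PS19 against WT in bulk hippocampus for genes enriched in endothelial nuclei and for 7 pathway lists, at 4 months (left, blue) and 9 months (right, red); points are genes and lines medians. Genes enriched in endothelial nuclei lie around -0.06 at 4 months and 0.33 at 9 months, and interferon and MHC genes around -0.42 and 1.39.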

How the data were processed

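Members and gene lists were chosen with earlier results of these data known. UMI counts per gene and barcode are as the authors deposited them (Cell Ranger 5.0.1, per the file headers); bulk read counts are deposited raw, and 1 file header names featureCounts 2.0.0, unstranded. The build is mm10, per the submitters' processing notes, which also name Seurat, cutadapt, STAR and DESeq2 with no role. Doublets were the barcodes with the highest Scrublet scores in a library, and were removed only in an alternative. Their share was set in advance at 0.8% per 1000 barcodes, which gave 6.03% to 12.9% of a library. Counts were summed per library and tested with edgeR 4.0.16 (TMM, filterByExpr, quasi-likelihood, R 4.3.3), with genotype groups plus sex in nuclei. Bulk libraries were fitted by genotype and age group without sex, which their labels do not give. Differences between endothelial and other nuclei used limma 3.58.1 on log2 CPM with a prior count of 2. This prior weighs more on the small endothelial sums than on those of other nuclei, and draws the endothelial change toward 0. Per-library values are TMM-scaled CPM; pooled values are unscaled. Calls are Benjamini-Hochberg adjusted p under 0.05, over all genes tested. DESeq2 1.42.0 was an alternative. Deviations of same-numbered libraries from their group means correlated at 0.158, 0.257, 0.322 and 0.113 in the 4 pairs of CLEAR with CLEAR_PS19. Libraries of other numbers in these groups correlated at -0.362 to 0.269, and 3 of the 4 pairs also lie in 1 library set. In WT and PS19 the same-numbered values were 0.242, 0.0704 and 0.153, against -0.226 to 0.0431 for other numbers. Whether the numbers pair libraries is thus not settled, and the replicate number was a block in an alternative only. Shares were compared by exact permutation of genotype labels. The fits were tested on simulated data, in which part of the 2-fold changes in endothelial nuclei was not recovered, so a list with 0 called genes is not shown to be unchanged. Intervals of shares are exact binomial ones at 95% and cover counting error only. Bulk libraries held 9630430 to 17182605 counts. Named genes were, per contrast, the 10 called genes with the smallest p in each direction, every called list member and, where fewer than 5 were called, the 5 with the smallest p; per list the 3 most abundant members and the 2 with the smallest p; a fixed set of 12 endothelial, transgene and mutation genes; the 6 rule genes; and the 10 most enriched genes. In bulk the text does not print all of these: the genes with the smallest p over the whole table are left out, and called members of the interferon list and of lists outside the vessel wall are given by counts or not at all. Zone genes and Adgrl4 in bulk were chosen after their values were seen.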

Additional observations from a re-analysis of the deposited data

Results flagged for a closer look

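CLEAR_PS19 replicate 4 stood far from the other 3 libraries of its genotype in endothelial nuclei per mural nucleus, at 3.6. In bulk at 4 months WT replicate 4 (139.9 CPM) and PS19 replicate 4 (77.2 CPM) stood far from their groups for B2m. These were 3 of 42 groups looked at, and chance flags about 1 in 20.

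The effect of the tau transgene differed between endothelial and other nuclei (limma) for Sp100 by -2.34, B2m by -1.54, Slfn5 by -1.92, Slco1c1 by 1.76, Fli1 by -1.26 and H2-D1 by -1.35. In PS19 against WT alone it differed for Sp100 by -3.25 and Slfn5 by -3.31 (limma adjusted p = 0.0099), and in CLEAR_PS19 against CLEAR for Tmcc3 by 1.71. That Slfn5 call was lost without WT replicate 1 (adjusted p = 0.12), WT replicate 3 (0.072) or PS19 replicate 2 (0.1), with 1000 or more genes per nucleus (0.14) and with the library sets as a block (1).

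The PS19 effect in bulk differed between 9 and 4 months (edgeR interaction, log2) for B2m by 2.26, H2-K1 by 2.35, Slfn5 by 1.34, Sp100 by 1.5, Isg15 by 3.51, Icam1 by 1.41, Osmr by 2.49 and Fli1 by 0.90. Among vessel and matrix genes it differed for Slco2b1 by 0.91, Slc16a1 by 0.45, Cav1 by 0.82, Ehd4 by 0.69, Tgfbr2 by 0.94, Id3 by 0.78, Adgrl4 by 0.53, Itga1 by 0.65, Sparc by 0.79 and Jam2 by 0.31.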

How the results depend on the processing

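Counts of called genes depended on the filter. With no filter on low counts they were 18 (tau transgene), 11 (PS19 against WT), 28 (CLEAR_PS19 against CLEAR), 4 (CLEAR mutation), 6 (CLEAR against WT), 3 (CLEAR_PS19 against PS19) and 16 (interaction), and for differences from other nuclei 333, 226 and 10 in the first 3 contrasts and 1 in CLEAR_PS19 against PS19. The tau count was 0 with the library sets as a block, with 1000 or more genes per barcode, without doublets, without glial UMIs and in males only (the last 2 chosen after seeing the data), and so was that of CLEAR_PS19 against CLEAR, for which DESeq2 gave 4. DESeq2 gave 1 in CLEAR against WT and 1 in the interaction. CLEAR against WT also gave 1 with 1000 or more genes and 2 without glial UMIs, and the interaction 1 with the sets as a block and 1 without glial UMIs. With the replicate block the counts were 1 in PS19 against WT, 4 for the CLEAR mutation, 1 in CLEAR against WT, 39 in CLEAR_PS19 against PS19, 2 in the interaction and, in bulk at 4 months, 5 (DESeq2 10). Between CLEAR and CLEAR_PS19 the replicate block kept the calls of Tmcc3 (edgeR adjusted p = 0.016) and Mgp (0.01) in endothelial nuclei. It ended that of the Tmcc3 difference from other nuclei (limma adjusted p = 0.15). In the other contrasts same-numbered libraries correlated at -0.214 to 0.267, and whether the numbers pair libraries is not settled in any contrast. For differences from other nuclei the tau count was 3 with the replicate block, 0 with the sets as a block and 2 without doublets; in PS19 against WT it was 0 with the sets as a block and 5 with 1000 or more genes; in CLEAR_PS19 against CLEAR 0 without the sex covariate, with the replicate block, with the sets as a block, with 1000 or more genes and without doublets; in CLEAR_PS19 against PS19 1 with 1000 or more genes. Leaving out a library gave 0 to 5 (tau), 0 to 4 (CLEAR_PS19 against CLEAR), 0 to 1 (CLEAR against WT and interaction), and for differences 1 to 9, 0 to 3, 0 to 2 and 0 to 2 in the tau, PS19 against WT, CLEAR_PS19 against CLEAR and CLEAR_PS19 against PS19 contrasts, and 1185 to 2110 in bulk at 9 months. Causes were not tested, except that fewer nuclei and libraries enter where barcodes or libraries are left out: 1000 or more genes keeps 9 libraries, with 1 of CLEAR_PS19 (its spread is taken from the other groups), removing doublets 13 and glial UMIs 12, with 2 of CLEAR_PS19. Shares and ratios stayed short of the threshold in every alternative run. For single genes, 1756 of 1905 values kept their direction or stayed uncalled, 140 lost a call, 9 gained one and 0 reversed. Depth limits all nuclei results.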

Other observations

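A few nuclei carried most UMIs of a gene. Of 1089 Trpm3 UMIs, a gene of leptomeningeal and choroid cells, 350 lay in 1 nucleus of CLEAR replicate 3, and 3 nuclei of that library and 1 of PS19 replicate 2 held 350, 273, 168 and 210. Hbb-bs reached 1279 UMIs in 1 nucleus of CLEAR replicate 1 that held 17814 UMIs in all.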
